A study of Mus musculus with 6 samples.

Results

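The muscle and cytoplasmic actins were 6 of the 46078 genes in the table of merged gene counts, taken as the rows named *Acta1*, *Actc1*, *Acta2*, *Actg2*, *Actb* and *Actg1*, and all 6 passed the filter on low counts. Their mRNA was measured by RNA-seq in C2C12 cells, immortalized mouse myoblasts that leave the cell cycle and fuse into myotubes when serum is withdrawn. All cells had 2 days of differentiation, and 3 libraries came from *Hnrnpa2b1* knockout (KO) cells and 3 from wild-type (WT) cells. They are called KO1, KO2 and KO3 and WT1, WT2 and WT3, and values are listed in that order. The KO cells had been edited with CRISPR-Cas9 from a plasmid that also confers puromycin resistance, and the WT controls had received a scrambled guide RNA. Clones of each genotype were isolated from single colonies, and the sources used here do not say which clone gave which library, so p-values measure the spread between these libraries. The comparison of KO with WT asks how loss of the RNA-binding protein hnRNPA2/B1 changes gene expression during early myotube formation.

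Mammals carry 6 conventional actin genes that encode nearly the same protein. *Acta1* (skeletal) and *Actc1* (cardiac) encode the sarcomeric alpha-actins of the thin filament, *Acta2* and *Actg2* the alpha- and gamma-actins of smooth muscle, and *Actb* and *Actg1* the cytoplasmic beta- and gamma-actins found in every cell. In developing skeletal muscle the cytoplasmic isoforms give way to the sarcomeric ones, and *Actc1* and *Acta2* are made early, before *Acta1* comes to dominate in mature fibres. Actin genes are classical targets of serum response factor (SRF), which binds the CArG box, and of its MRTF coactivators, which free actin monomers hold back.

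Promoter sequence was held in the RefSeq table used here for 4 of the 6 genes (*Acta1*, *Acta2*, *Actc1* and *Actg1*), as 250 bases before to 50 bases after the start. The CArG box was matched as CCWWWWWWGG, where W is A or T, with no mismatch allowed. It was found in 3 of these 4, on either strand, against 1.63% of all 32851 promoters of the same length. The boxes are shown because they are the element that these actins share and the reference for the SRF genes described later. Each is given 5′ to 3′ on the gene's minus strand with 10 bases on either side, on RefSeq GRCm38.p6, and capitals mark the box.
Acta1 CArG window: tgcccgacacCCAAATATGGcttgggaagg
Actc1 CArG window: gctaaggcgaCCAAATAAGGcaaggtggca
Actg1 CArG window: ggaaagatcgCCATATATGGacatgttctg
The *Acta1* window lies at chr8:123894829-123894858, with the box 73 to 64 bases upstream of the RefSeq start. The *Actc1* window lies at chr2:114052903-114052932, with the box 47 to 38 bases upstream of the RefSeq start at 114052875. That start lies 673 bases inside the deposited gene span, whose end is set by another transcript model that begins further upstream, and 12 bases from the start of the GENCODE transcript used here. The *Actg1* window lies at chr11:120348566-120348595, with the box 90 to 81 bases upstream of the RefSeq start. Both sarcomeric promoters also held 1 TATAAA, a motif present in 13.6% of all promoters, whereas the *Acta2* and *Actg1* windows held none. No CArG box was matched in the *Acta2* window, which says only that these letters are not in those 300 bases. The RefSeq start that sets this window lies 217 bases from the start of the GENCODE transcript of *Acta2* used here.

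The libraries held 33605258 to 40558740 counted reads. KO1 stood apart from KO2 and KO3 in muscle genes. The summed level of 14 skeletal muscle markers, all of them detected, was 15849, 6770 and 6224 CPM in KO and 15181, 12815 and 16607 CPM in WT, where CPM are the reads of a gene relative to the library total, with edgeR's TMM scaling. Thus KO1 lay within the WT range and the other 2 KO libraries below it. The values of the actins and the counts of most gene lists are therefore given with and without KO1. The mRNA of the targeted gene, *Hnrnpa2b1*, was 159, 195 and 249 CPM in KO and 225, 229 and 252 CPM in WT. The ranges overlapped and the gene did not pass (log2 −0.23, adjusted p = 0.381, edgeR), so the counts do not by themselves separate the genotypes, and the authors assessed the loss at the protein level.

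Among the 6 actins, *Actg2* fell in KO cells and the other 5 did not pass the test in counts (edgeR quasi-likelihood test, Benjamini-Hochberg adjusted p under 0.05 over 14828 genes). Of all genes tested, 22.7% passed, 12.1% higher and 10.6% lower in KO. At an unadjusted p under 0.05, 3 of the 6 actins (*Actb*, *Actc1* and *Actg2*) and 39.0% of all genes differed. The sarcomeric *Actc1* passed in TPM, a level corrected for transcript length, but not in counts with this edgeR fit. With DESeq2 it did pass in counts (adjusted p = 0.0114). Within the sarcomeric pair the ratio of *Actc1* to *Acta1* was lower in every KO library than in any WT library, whatever the level of the pair. The cytoplasmic actins were higher in KO2 and KO3 than in all WT libraries. The sum of all 6 was about the same in both genotypes, with 5808, 4273 and 4980 TPM in KO and 5028, 5001 and 4723 TPM in WT. The WT sums lay within the range of the KO sums. In CPM with TMM scaling the sum was 14606, 10697 and 10506 in KO and 11337, 11290 and 11625 in WT, so that KO1 lay above all WT libraries and KO2 and KO3 below them. Without that scaling, as a share of all counts, it was 1.43%, 1.15% and 1.12% in KO and 1.08%, 1.10% and 1.10% in WT. All KO libraries then lay above all WT libraries, so the direction for KO2 and KO3 depended on the scaling.

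**Figure D1:**
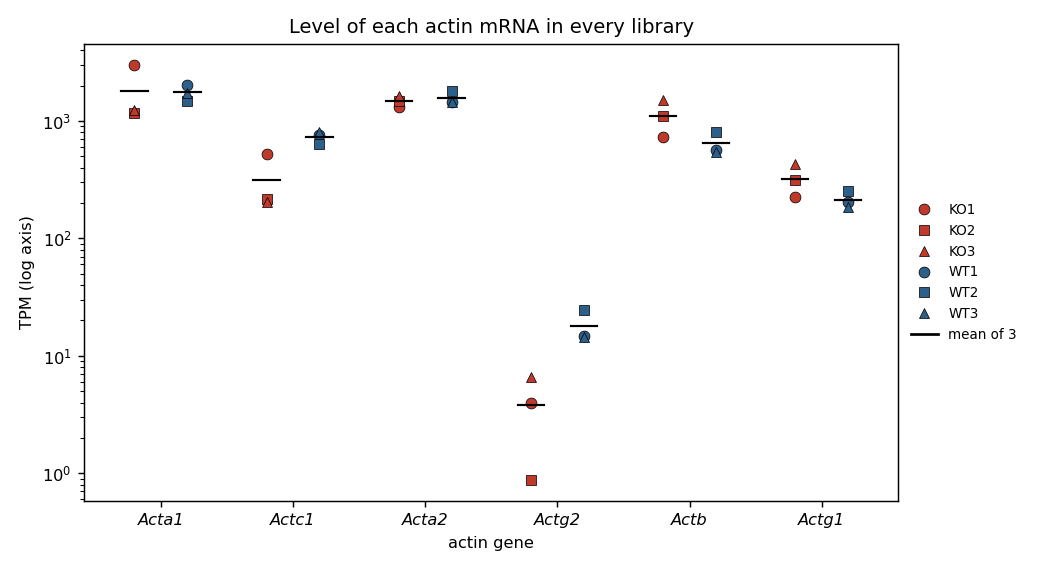
Level of each actin mRNA in TPM on a log axis (y) for the 6 genes (x), with 1 point per library (red KO, blue WT, shapes for the library number) and a bar at the mean of 3. *Actg2* lies far below the other 5 genes, its KO points and those of *Actc1* sit below all WT points, and KO1 stands above KO2 and KO3 in *Acta1* and *Actc1*.

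*Acta1* (ENSMUSG00000031972, chr8:123891767-123894736 on GRCm38), the actin of adult skeletal muscle, stood at 7023, 2553 and 2304 CPM in KO and at 4188, 2958 and 3845 CPM in WT. KO1 was the highest of all 6 libraries, at 2.89 times the mean of KO2 and KO3, and these 2 were the lowest of all. The log2 fold change over all libraries was 0.11 (standard error 0.44, adjusted p = 0.871, edgeR), and the difference on log2(TPM + 1) was −0.09 (adjusted p = 0.884, limma). Neither its size nor its direction held over single libraries: in counts it was −0.60 without KO1 (standard error 0.24, adjusted p = 0.0912) and −0.03 without WT2.

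*Actc1* (ENSMUSG00000068614, chr2:114047282-114053548), the cardiac alpha-actin that embryonic and newly formed skeletal myotubes also make, stood at 1248, 487 and 380 CPM in KO and at 1599, 1284 and 1827 CPM in WT. In TPM the values were 525, 218 and 202 in KO and 761, 630 and 801 in WT. The genotypes did not overlap on either scale, and KO1 came close to WT2 in CPM. In bulk RNA, fewer differentiated cells and less actin mRNA per cell cannot be told apart. Non-overlapping groups were found for 44.3% of all genes tested in CPM and 40.6% in TPM. The fold change in counts was 2.23-fold lower in KO (log2 −1.16, standard error 0.43, adjusted p = 0.0890, edgeR), which missed the threshold, and DESeq2 gave −1.18 (adjusted p = 0.0114). On log2(TPM + 1) the difference was −1.35 (standard error 0.34, adjusted p = 0.0265, limma), and 20.5% of the 11691 genes tested on that scale passed. Without KO1 the log2 fold change in counts was −1.86 (adjusted p = 0.00117). The call in TPM was lost without the filter on low values (adjusted p = 0.130), without KO2 (−1.15, adjusted p = 0.0645), without KO3 (−1.10, adjusted p = 0.0791), without WT1 (−1.32, adjusted p = 0.112) and without WT3 (−1.28, adjusted p = 0.0878).

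The ratio of *Actc1* to *Acta1* sets the sarcomeric actins against each other within 1 library, so that no scaling between libraries changes it. As a ratio of TPM it was 0.175, 0.188 and 0.163 in KO and 0.374, 0.426 and 0.466 in WT. KO1, which stood apart from KO2 and KO3 in the level of each gene, lay between them in the ratio. The mean log2 ratio was −2.52 ± 0.101 in KO and −1.25 ± 0.160 in WT (SD, n = 3 each), a difference of −1.26 (exact two-sided permutation test, p = 0.1, the smallest that 3 against 3 can give). Leaving out each library in turn kept the difference between −1.35 and −1.19. How often the ratios of other gene pairs separate in this way was not computed. Of single genes tested in TPM, 40.6% did not overlap between genotypes. The sarcomeric actins also had different nearest genes in pattern. Across the 6 libraries the genes whose log2 CPM ran most like *Acta1* were *Gpam* (Pearson r = 0.979), *Slc35e4* (0.976) and *Ctsz* (0.973), and those most like *Actc1* were *Steap3* (0.997), *Acot9* (0.997) and *Cacng1* (0.996), a subunit of the skeletal muscle calcium channel. These correlations describe 6 libraries of 2 genotypes and were picked as the highest among 5377 genes.

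**Figure D2:**
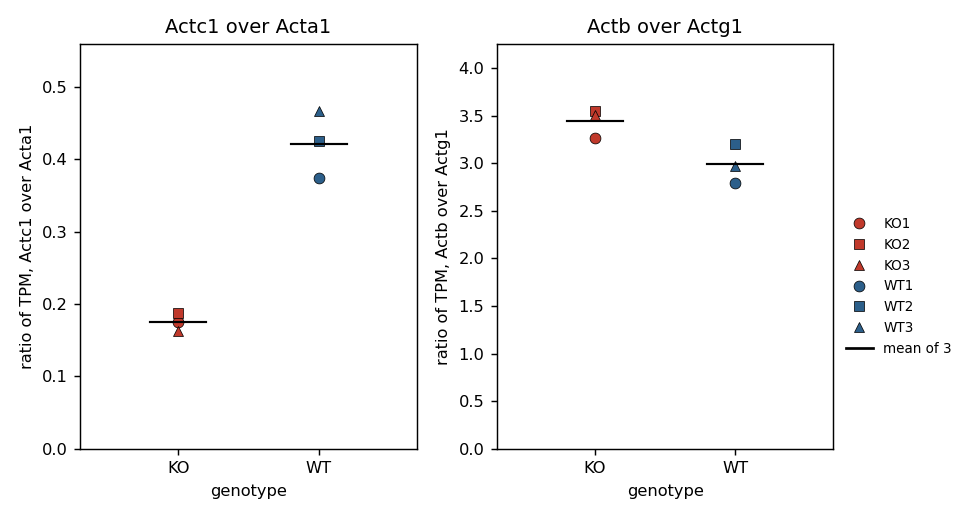
Ratio of TPM (y) of *Actc1* over *Acta1* (left) and of *Actb* over *Actg1* (right) in the KO and WT libraries (x), with 1 point per library and a bar at the mean of 3; both axes start at 0. The *Actc1* to *Acta1* ratio is 0.163 to 0.188 in KO and 0.374 to 0.466 in WT, and the gap between genotypes is wider than the spread within either.

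The smooth muscle actins differed widely in level. *Acta2* (ENSMUSG00000035783, chr19:34241090-34255336), which smooth muscle, myofibroblasts and young myotubes make, stood at 3793, 4021 and 3709 CPM in KO and at 3694, 4501 and 4041 CPM in WT. The genotypes overlapped, and KO1 lay between KO2 and KO3. The log2 fold change was −0.09 (standard error 0.21, adjusted p = 0.789, edgeR), and the spread between libraries was thus larger than the difference. Of the 6 genes, *Acta2* had the smallest spread relative to its mean in CPM over the KO libraries (SD 161 around 3841).

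*Actg2* (ENSMUSG00000059430, chr6:83512905-83536265), the gamma-actin of visceral smooth muscle, was the least abundant actin in all 6 libraries. It stood at 8.65, 1.58 and 11.0 CPM in KO and at 28.4, 45.1 and 29.8 CPM in WT, from 309, 69 and 451 counts in KO and 981, 1480 and 1107 counts in WT. All KO libraries were below all WT libraries, and KO2 was lowest. The level was 4.87-fold lower in KO (log2 −2.28, standard error 0.59, adjusted p = 0.0303, edgeR), and the difference on log2(TPM + 1) was −2.15 (standard error 0.45, adjusted p = 0.0133, limma). *Actg2* was the 1 of 6 actins called in counts by the main edgeR fit, whereas DESeq2 also called *Actb* and *Actc1* (adjusted p = 0.0117 and 0.0114). It missed the threshold with the replicate number as a block (−2.52, adjusted p = 0.0519), and in TPM without the filter on low values (−2.15, adjusted p = 0.0984). The call in counts was lost without WT1 (−2.42, adjusted p = 0.0807), without WT2 (−2.05, adjusted p = 0.0787) and without WT3 (−2.40, adjusted p = 0.0751), and the fold change stayed at −1.80 or below in each of the 6 fits that left out 1 library. In TPM the call was lost without WT1 (−2.25, adjusted p = 0.0585). The genes that ran most like *Actg2* over the 6 libraries were *Postn* (r = 0.992), which encodes the matrix protein periostin, *Ascc3* (0.991) and *Ank2* (0.991).

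Of 12 smooth muscle contractile and marker genes tested beside these actins, 2 rose, 1 fell and 9 did not pass, with a median log2 fold change of −0.08 against 0.03 over all genes. *Mylk*, myosin light chain kinase, stood at 27.5, 144 and 90.9 CPM in KO and 6.68, 7.34 and 7.30 CPM in WT (log2 3.62, adjusted p = 0.00514). *Aoc3*, an amine oxidase of vascular smooth muscle, also rose (log2 5.50, adjusted p = 0.00995, from at most 0.216 CPM in WT and 0 in WT2, and 6.38 without WT3), and *Lmod1*, a leiomodin that nucleates actin filaments in smooth muscle, fell (−1.27, adjusted p = 0.0208). Leaving out WT1 ended the *Aoc3* call (adjusted p = 0.0562) and leaving out KO2, WT1 or WT3 that of *Lmod1* (0.0538 to 0.0837), whereas *Mylk* passed in all 6 such fits. Without KO1, 3 of the 12 rose and 3 fell. The list was uneven in level: *Myh11* stood at 0.318 to 0.710 CPM and *Cnn1* at 0.115 to 1.29 CPM, beside 3694 to 4501 CPM of *Acta2*, whereas *Tagln* stood at 10.8 to 81.5 CPM, *Myl9* at 37.1 to 139.8 CPM and *Cald1* at 213 to 396 CPM, these levels being named after they were seen.

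The cytoplasmic actins ran in nearly the same order of libraries, with KO3 and KO2 highest in both. *Actb* (ENSMUSG00000029580, chr5:142903115-142906754), beta-actin, stood at 2223, 3196 and 3594 CPM in KO and at 1549, 2152 and 1612 CPM in WT. The groups did not overlap in CPM, with KO1 just above WT2, but in TPM KO1 (731) lay below WT2 (809). The log2 fold change was 0.76 (standard error 0.26, adjusted p = 0.0685, edgeR) over all libraries and 0.93 (standard error 0.225, adjusted p = 0.0165) without KO1. DESeq2, another count test, gave 0.74 with an adjusted p of 0.0117. With any of the other 5 libraries left out in turn, edgeR gave 0.62 to 0.92 and *Actb* did not pass (adjusted p = 0.0864 to 0.251).

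*Actg1* (ENSMUSG00000062825, chr11:120345690-120348542), gamma-actin, stood at 310, 439 and 507 CPM in KO and at 280, 350 and 270 CPM in WT. KO1 lay below WT2, so the groups overlapped. The log2 fold change was 0.48 (standard error 0.21, adjusted p = 0.135, edgeR) and, without KO1, 0.65 (standard error 0.17, adjusted p = 0.0240). It did not pass with any other library left out, the lowest values being 0.32 without KO3 (adjusted p = 0.324) and 0.38 without WT3 (adjusted p = 0.357). The ratio of *Actb* to *Actg1* TPM was 3.27, 3.54 and 3.51 in KO and 2.79, 3.21 and 2.97 in WT. The lowest KO ratio (KO1) lay close to the highest WT ratio (WT2), and the log2 ratios differed by 0.20 (exact two-sided permutation test, p = 0.1). The closest patterns to *Actb* were those of *Arhgef40* (r = 0.997), *Hnrnpr* (0.995) and *Itpripl2* (0.994), and to *Actg1* those of *Pan3* (0.996), *Fmr1* (0.996) and *Zeb2* (0.995). *Hnrnpr* and *Fmr1* encode RNA-binding proteins.

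The level of *Actg1* carries an uncertainty that the other 5 actins do not share to the same extent. Of all windows of 100 bases in its transcript, 51.1% occur unchanged in transcripts of other genes, most of them in the processed pseudogene *Gm12715*, against 1.10% for *Actb* and 0 for the other 4 genes. The counted reads per TPM, which should be near each other for transcripts of like length, had a median of 49.2 in *Actg1* and 104 in *Actb*, whose transcripts are 1952 and 1920 bases long. *Gm12715* itself held 143, 190 and 206 counts in KO and 112, 129 and 115 in WT, few beside the 9664 to 20761 counts of *Actg1*. The ratio of the cytoplasmic actins and every share of TPM include this gene, and its part in them was not tested. Between pairs of actins, 82.0% to 88.6% of coding bases were identical, the highest being *Actb* with *Actg1* and the next *Acta1* with *Actc1* (86.3%).

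**Figure D3:**
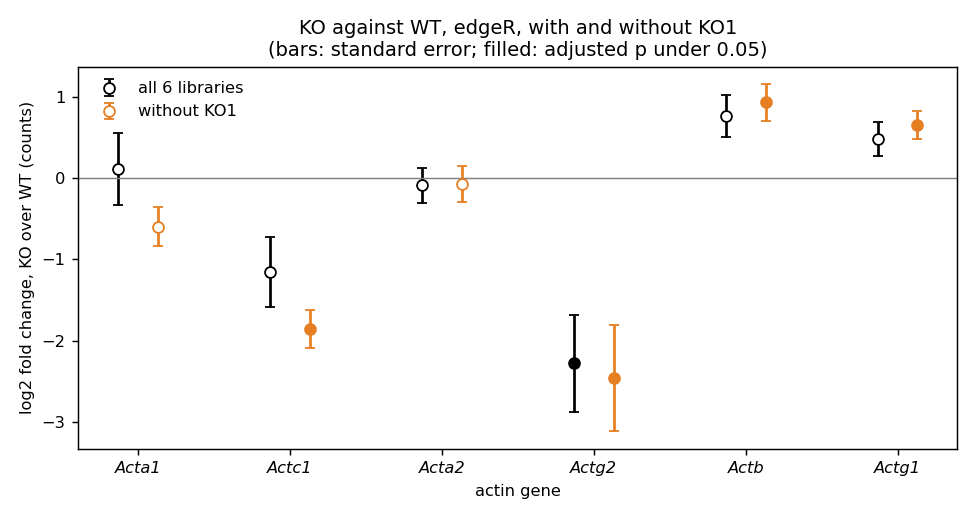
Log2 fold change of KO over WT in counts (y, edgeR) for each actin (x), over all 6 libraries (black) and without KO1 (orange), with standard errors and filled points where the adjusted p is under 0.05. *Actg2* alone is filled in black, whereas *Actc1*, *Actg2*, *Actb* and *Actg1* are filled without KO1, and *Acta1* changes sign.

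Without KO1, 4 of the 6 actins passed the count test: *Actb* and *Actg1* rose, and *Actc1* and *Actg2* (log2 −2.46, adjusted p = 0.0243) fell. The same fit called 30.6% of 15409 genes, 15.5% higher and 15.1% lower. KO1 was set apart by its muscle gene sum, which *Actc1* and *Acta1* follow, so these calls are not independent of that choice. The same 4 genes passed in TPM without KO1, where 27.6% of 11433 genes did. In the count fit without KO1 *Acta2* gave −0.08 (adjusted p = 0.801).

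As shares of all actin TPM, *Acta1* and *Acta2* led in every library except KO3, where *Actb* came second. *Acta1* made up 51.7%, 27.2% and 24.9% of actin TPM in KO and 40.5%, 29.6% and 36.4% in WT, and *Acta2* made up 22.7% to 34.5% in KO and 28.7% to 36.1% in WT. In both genes the genotypes overlapped.

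*Actc1* held 9.04%, 5.10% and 4.06% of actin TPM in KO and 15.1%, 12.6% and 17.0% in WT, with no overlap. Its mean share was 6.07% ± 2.63 in KO and 14.9% ± 2.19 in WT (SD, n = 3 each, exact two-sided permutation test, p = 0.1). *Actb* held 12.6%, 25.9% and 29.9% in KO and 11.3%, 16.2% and 11.6% in WT, and *Actg1* 3.85%, 7.30% and 8.54% in KO and 4.06%, 5.04% and 3.91% in WT. For both, KO2 and KO3 lay above all WT libraries, whereas KO1 lay within the WT range for *Actb* and below it for *Actg1*. Leaving out each library in turn moved the difference in mean share, in percentage points, from −0.892 to between −9.46 (without KO1) and 3.97 (without KO3) for *Acta1*, from −1.98 to between −4.29 and 1.60 for *Acta2*, from 9.77 to between 6.19 and 14.9 for *Actb* and from 2.23 to between 1.24 and 3.59 for *Actg1*. That of *Actc1* stayed between −10.3 and −7.80. *Actg2* held 0.0205% to 0.132% in KO and 0.295% to 0.486% in WT (exact p = 0.1), also with no overlap.

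Grouped by class, the sarcomeric actins made up 60.8%, 32.3% and 28.9% of actin TPM in KO and 55.6%, 42.2% and 53.4% in WT. The cytoplasmic actins made up 16.4%, 33.2% and 38.5% in KO and 15.4%, 21.2% and 15.5% in WT. KO2 and KO3 thus had more cytoplasmic than sarcomeric actin mRNA, whereas KO1 and the WT libraries had more sarcomeric. The smooth muscle class, nearly all *Acta2*, held 22.8% to 34.5% in KO and 29.0% to 36.6% in WT. The sum of the skeletal muscle markers moved with the sarcomeric share, being highest in KO1 among KO libraries and lowest in WT2 among WT libraries; its part in the shares was not tested.

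**Figure D4:**
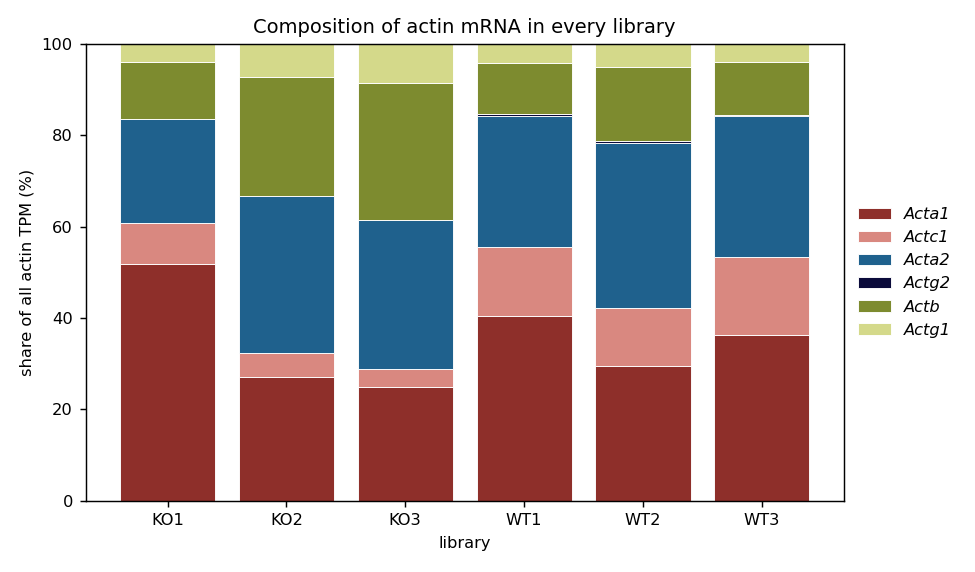
Share of all actin TPM in percent (y) held by each of the 6 genes in every library (x), stacked to 100%. The *Actc1* segment is 4.06% to 9.04% in KO and 12.6% to 17.0% in WT, and the cytoplasmic segments at the top are tallest in KO2 and KO3.

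In order of TPM, *Acta1* and *Acta2* took the first place in 3 libraries each. *Actb* had rank 2 in KO3, rank 3 in KO1, KO2 and WT2 and rank 4 in WT1 and WT3, while *Actc1* had rank 3 in WT1 and WT3 and rank 5 in KO2 and KO3. Mean TPM was 1802 ± 1042 for *Acta1*, 1470 ± 147 for *Acta2*, 1109 ± 380 for *Actb*, 320 ± 101 for *Actg1*, 315 ± 182 for *Actc1* and 3.80 ± 2.84 for *Actg2* in KO (SD, n = 3). The spread of *Acta1* overlapped those of *Acta2* and *Actb*, and the spreads of *Actg1* and *Actc1* overlapped too. The order within each of these pairs differed between KO libraries. *Acta2* stood above *Actb* in every KO library, with 1320, 1475 and 1615 TPM against 731, 1106 and 1492 TPM. In WT the means were 1745 ± 278 for *Acta1*, 1568 ± 206 for *Acta2*, 731 ± 89.4 for *Actc1*, 642 ± 145 for *Actb*, 214 ± 34.8 for *Actg1* and 17.8 ± 5.63 for *Actg2*. There *Acta1* and *Acta2* lay within their spread, as did *Actc1* and *Actb*. *Acta1* was among the 33 genes with the most TPM in each library, whereas *Actg2* ranked between 2504 and 3862 in WT and between 6861 and 11700 in KO.

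Regulators of SRF and other SRF targets were examined next. Of 24 SRF regulators and targets tested, other than the actins, 5 rose and 19 did not pass, with a median log2 fold change of 0.32. Without KO1, 8 rose and 1 fell, with a median of 0.49. Of all genes tested, 12.1% rose and 10.6% fell over all libraries, and 15.5% rose and 15.1% fell without KO1. The counts of every list are to be read beside these shares. *Junb*, an immediate early transcription factor, stood at 251, 298 and 256 CPM in KO and 93.6, 88.5 and 86.7 CPM in WT (log2 1.58, adjusted p = 0.000712, edgeR). The immediate early genes *Egr1* (1.44, adjusted p = 0.0266) and *Fosb* (1.57, adjusted p = 0.0316, at most 28 counts in a library) rose as well, although *Fosb* did not pass with DESeq2 (adjusted p = 0.0779) or with edgeR on every gene of any count (0.0909). The other two that rose, named after their values were seen, were *Fhl1*, a LIM protein of muscle (122 CPM in KO and 60.8 in WT on average, adjusted p = 0.0132), and *Elk4* (0.56, adjusted p = 0.0228), an SRF partner. *Junb* passed with each library left out, whereas *Egr1* passed only without KO1 (adjusted p 0.0614 to 0.104 otherwise), *Fosb* only without KO3 (0.0525 to 0.131) and *Elk4* only without KO1 or KO2 (0.0548 to 0.107), and *Fhl1* was lost without WT1 (0.0612) or WT3 (0.0512). *Srf* itself stood at 55.9 to 71.2 CPM in KO and 53.2 to 57.3 CPM in WT (0.16, adjusted p = 0.386), and the coactivator genes *Mkl1* (−0.21, adjusted p = 0.213) and *Mkl2* (0.26, adjusted p = 0.316) did not pass either. *Myocd*, which drives SRF targets in smooth and cardiac muscle, had at most 3 counts in any library.

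Of 24 tested genes that bind actin monomers or turn filaments over, 6 rose and 2 fell, with a median of 0.17, and without KO1 9 rose and 4 fell. *Cap1*, which recycles monomers with cofilin, stood at 258, 472 and 479 CPM in KO and 149, 180 and 138 CPM in WT (log2 1.38, adjusted p = 0.0100). *Gsn*, the severing protein gelsolin, rose by 1.31 (adjusted p = 0.0313), and *Twf1*, a monomer-binding twinfilin, by 0.87 (adjusted p = 0.00513). Its paralog *Twf2* fell (−1.18, adjusted p = 0.0397), as did *Ssh2*, a phosphatase that activates cofilin (−1.67, adjusted p = 0.0122). *Cfl1*, cofilin itself and named after its value was seen, rose by 0.74 (adjusted p = 0.0384). *Twf1* passed with each library left out. Without WT1 the calls of *Cap1*, *Gsn*, *Twf2*, *Ssh2* and *Cfl1* were lost (adjusted p = 0.0575, 0.107, 0.144, 0.0562 and 0.159), and all of these but *Ssh2* were also lost without WT3. *Gsn*, *Twf2* and *Cfl1* did not pass without KO3 either, nor *Gsn* and *Cfl1* without WT2, nor *Cfl1* without KO2.

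Of 25 tested genes that nucleate or branch filaments, 4 rose and 5 fell, with a median of 0.17, and without KO1 5 rose and 3 fell of 26 tested. *Arpc5*, a subunit of the Arp2/3 complex, stood at 66.2, 92.0 and 87.9 CPM in KO and 39.8, 43.2 and 41.6 CPM in WT (log2 0.98, adjusted p = 0.00546). Its paralog *Arpc5l* fell from 111 to 146 CPM in WT to 66.6 to 97.1 CPM in KO (−0.70, adjusted p = 0.0274), so that the paralogs of 1 subunit passed in opposite directions. *Cobl*, a nucleator, stood at 51.8, 40.2 and 33.3 CPM in KO and 141, 129 and 126 CPM in WT (−1.66, adjusted p = 0.00184). The formin gene *Fmnl1* (4.14, adjusted p = 0.0149) and the nucleator gene *Spire2* (2.38, adjusted p = 0.0266) rose from a low level, with the highest values in KO1 (10.6 and 12.0 CPM), and without KO1 their log2 fold changes were 2.95 and 1.72. *Whamm* fell (−0.75, adjusted p = 0.0411). The remaining calls, named after their values were seen, were a rise of *Fmnl3* and falls of *Fhod3* and *Wasl*. *Arpc5* and *Cobl* passed with each library left out. The other 7 calls were lost without WT1 (adjusted p = 0.0717 to 0.172, and 0.105 for *Arpc5l*), and all but *Arpc5l* were lost without WT3. *Arpc5l* was also lost without KO2, KO3 or WT2, and *Whamm* without KO1, KO2 or WT2. *Fhod3* was also lost without KO1, KO2 or KO3, *Wasl* without KO2 or WT2, and *Spire2* without WT2. With library totals alone *Whamm*, *Fhod3* and *Wasl* did not pass (adjusted p = 0.0815, 0.0872 and 0.0990).

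Actin is folded by prefoldin and the CCT chaperonin. Of 20 tested genes that fold or modify actin, 1 rose and 3 fell, with a median of −0.12, and without KO1 0 rose and 4 fell. The chaperonin subunits *Cct4* (−0.57, adjusted p = 0.0390) and *Cct7* (−0.52, adjusted p = 0.0324) and the prefoldin subunit *Pfdn6* (−0.48) fell, and the prefoldin subunit *Pfdn4* rose (0.55). *Cct4* stood at 351.8, 324 and 256 CPM in KO and 477, 458 and 451 CPM in WT, with no overlap. All 4 calls were lost without KO3 or without any 1 WT library (adjusted p = 0.0723 to 0.167), that of *Pfdn4* also without KO1 or KO2, and those of *Cct4* and *Pfdn6* also without KO2. With library totals alone the falls of *Cct4*, *Cct7* and *Pfdn6* did not pass (adjusted p = 0.0621, 0.0897 and 0.1001). Of 11 nonmuscle myosin and tropomyosin genes, some of which, such as *Tpm1* and *Tpm2*, also serve the sarcomere, 0 passed with edgeR and 0 with DESeq2 over all libraries, and 1 had an unadjusted p under 0.05. Without KO1, 1 of them rose and 3 fell.

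**Figure D5:**
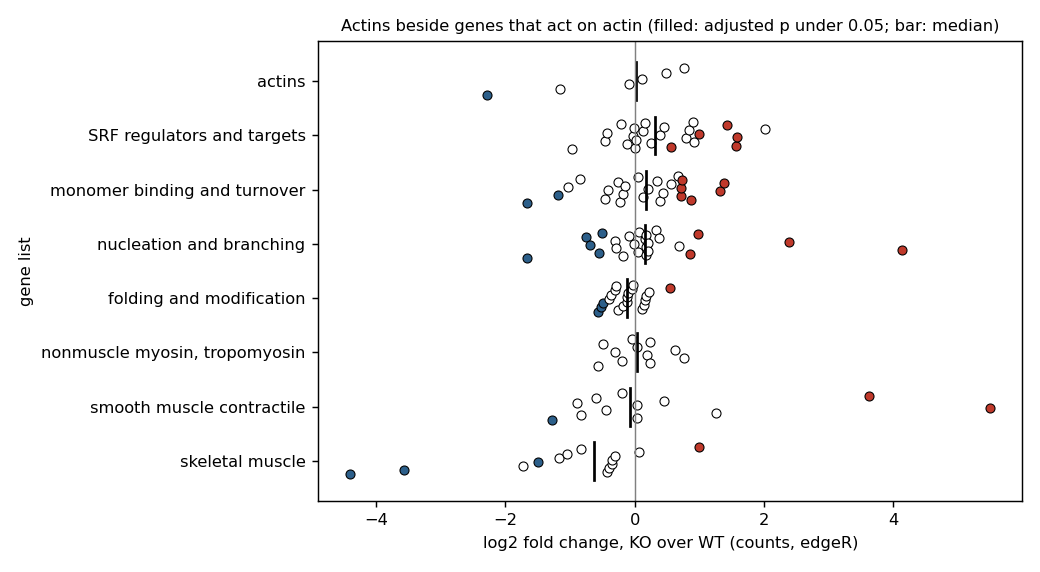
Log2 fold change of KO over WT in counts (x, edgeR) for the actins and 7 other lists (y), with 1 point per tested gene, filled red where it rose, filled blue where it fell and open where the adjusted p was not under 0.05, and a bar at the list's median. The SRF list holds 5 filled points, all on the right side over these 6 libraries, and of the lists drawn the skeletal muscle list has the lowest median (−0.63).

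Among the skeletal muscle markers, which include regulators of the sarcomeric actins, 1 of 14 rose and 3 fell, with a median of −0.63. Without KO1, 10 fell and 1 rose, which is no separate result, since KO1 was set apart by the sum of these same markers. *Mef2c*, a transcription factor that acts with the myogenic factors on muscle promoters, stood at 17.1, 2.34 and 1.17 CPM in KO and 80.8, 162 and 189 CPM in WT (log2 −4.40, adjusted p = 0.0169, and −6.35 without KO1). *Myf6* (−3.58, adjusted p = 0.0162, and −5.08 without KO1, at 0.0687 CPM or less in KO2 and KO3) and *Myf5* (−1.50, adjusted p = 0.0303, and −2.11 without KO2) fell, and *Myod1*, which commits cells to the muscle lineage, rose by 0.99 (adjusted p = 0.0141). Without WT3 the calls of *Mef2c*, *Myf6*, *Myf5* and *Myod1* were lost (adjusted p = 0.0556, 0.0647, 0.0781 and 0.0695), and all but that of *Mef2c* were also lost without WT1. *Myf5* did not pass without KO3 or WT2 either. *Myh3*, embryonic myosin heavy chain, stood at 4146, 1007 and 1423 CPM in KO and 4474, 4589 and 5811 CPM in WT. Its KO1 value stood near WT as that of *Acta1* stood above it, and *Myh3* did not pass with edgeR over all libraries (−1.18, adjusted p = 0.126) but did with DESeq2 (−1.20, adjusted p = 0.0198). It also passed with edgeR without KO1 (−2.04, adjusted p = 0.00145) and on every gene of any count (−1.20, adjusted p = 0.000809).

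Since *Actc1* is named for the heart, markers of cardiac muscle were read beside it. *Nppa*, *Nppb*, *Tbx5* and *Tbx20* had at most 3 counts in every library, and the other 4 of 8 were tested, of which 1 fell, and 2 without KO1. *Gata4* fell, from 18.1 to 33.7 CPM in WT to 6.76 to 9.76 CPM in KO (log2 −1.60, adjusted p = 0.00635), and *Myh6* stood at 16.1, 1.74 and 2.86 CPM in KO and 29.6, 30.1 and 39.6 CPM in WT (−2.27, adjusted p = 0.0607). Like *Actc1*, *Myh6* was highest in KO1 among the KO libraries and lower in each of them than in WT. Summed over the list, cardiac markers came to 14.7 to 33.9 CPM in KO and 55.1 to 85.9 CPM in WT, and their part in the *Actc1* result was not tested.

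Markers of other cells were read beside *Acta2* and the cytoplasmic actins. The 8 fibroblast markers summed to 7114 to 11181 CPM in KO and 5388 to 7144 CPM in WT, of which 5 were tested and 1, *Pdgfra*, rose (2 without KO1). Most of the sum was *Col3a1* (4949 to 8313 CPM in KO, log2 0.65, adjusted p = 0.132) and *Col1a2* (−0.36, adjusted p = 0.414), collagen genes that did not pass, while *Lum*, *Thy1* and *Tcf21* stood at 2.41 CPM or less in every library. Of the 5 tested, 1 had a negative log2 fold change, and the median was 1.17. *Col1a1* stood at 449, 42.4 and 440 CPM in KO and 46.4 to 107 CPM in WT (2.16, adjusted p = 0.0760, edgeR). Neither it nor *Dcn* passed (1.54, adjusted p = 0.259, highest in KO1 at 90.6 CPM). The 5 pericyte markers summed to 340 to 1057 CPM in KO and 186 to 266 CPM in WT. Most of the KO sum was *Pdgfrb* (239 to 957 CPM), which rose, whereas *Abcc9* fell, with and without KO1, and *Rgs5* and *Kcnj8* stood at 0.195 CPM or less in every library. Without WT1 the calls of *Pdgfra*, *Pdgfrb* and *Abcc9* were lost (adjusted p = 0.109, 0.0656 and 0.0523), and that of *Pdgfra* also without KO3, WT2 or WT3. Immune markers came to 1.92 to 3.47 CPM over all libraries. Endothelial markers came to 0.308 to 1.44 CPM in KO and 1.95 to 3.50 CPM in WT, and *Kdr* fell (−2.15, adjusted p = 0.0363), a call lost without KO3 or any 1 WT library (0.0791 to 0.128). KO3 was highest among all libraries in the fibroblast and pericyte sums, as in *Actb* and *Actg1*, and the part of these marker levels in the actin values was not tested.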

How the data were processed

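RNA depleted of ribosomal RNA was sequenced as paired reads of 150 bases from 3 KO and 3 WT C2C12 libraries. The authors' pipeline used Trim Galore, STAR, featureCounts and StringTie, and the counts per gene were deposited without normalization. TPM values were deposited per library, as the authors' StringTie run computed them, and values sharing a gene identifier were summed. The counter's strand setting and the annotation release are not given in the sources used here. The methods name GRCm39 and the processing notes mm9, whereas the deposited coordinates fit GRCm38, which is used here.

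All 6 columns of counts entered 1 fit of the whole table: edgeR 4.0.16 (R 4.3.3), TMM factors, filterByExpr by genotype, two-sided quasi-likelihood test and Benjamini-Hochberg adjustment over 14828 genes, with a threshold of 0.05. TPM was tested with limma 3.58.1 with trend on log2(TPM + 1), keeping genes that reached 1 TPM in 3 libraries; differences on that scale understate changes of low genes. Shares and ratios were compared with exact permutation tests. DESeq2 1.42.0, other scalings, filters, pseudocounts, libraries left out and the replicate number as a block were alternatives. Counts of 3 or fewer were taken as not detectable. The per-gene tests were also run on simulated counts with planted changes and a common spread for all genes. That simulation did not include the differences seen between the KO libraries, and it did not cover the shares, ratios or sequence matches.

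Named genes were the actins, *Hnrnpa2b1*, up to 3 of the largest rises and falls that passed in each list, and for each actin the 3 genes with the highest Pearson r of log2 CPM (mean of at least 5, no predicted-gene name). Other genes printed with values, among them *Srf*, *Mkl1*, *Mkl2* and *Myh3*, were named after their values were seen. The actins, the lists and the comparisons were chosen with earlier results of these data known. Windows of 100 bases were matched on GENCODE vM21 transcripts, and the CArG box was matched on both strands as the exact pattern given above. Splicing and the other assays of the study were not analysed here.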

Additional observations from a re-analysis of the deposited data

How the results depend on the processing

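Leaving out each library in turn moved the number of genes called from 3361 to between 933 (without WT1) and 4712 (without KO1) in counts, and from 2394 to between 484 and 3156 in TPM; with every gene of any TPM it was 1075. Over the same fits the log2 fold change in counts ran from −0.60 to 0.39 for *Acta1*, −0.16 to −0.02 for *Acta2*, 0.62 to 0.93 for *Actb*, −1.86 to −0.85 for *Actc1*, 0.32 to 0.65 for *Actg1* and −2.76 to −1.80 for *Actg2*. In TPM it ran from −0.53 to 0.16 for *Acta1*, −0.16 to 0.02 for *Acta2*, 0.51 to 1.02 for *Actb*, −1.79 to −1.10 for *Actc1*, 0.32 to 0.78 for *Actg1* and −2.58 to −1.58 for *Actg2*. *Acta1* turned negative without KO1 (−0.60) and without WT2 (−0.03) in counts, and positive without KO2 (0.16), KO3 (0.11) or WT1 (0.03) in TPM, and *Acta2* turned positive without WT2 in TPM (0.02).

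*Actb* and *Actc1* passed with DESeq2 (0.74 and −1.18, adjusted p = 0.0117 and 0.0114) and with edgeR on every gene of any count (0.74 and −1.18, adjusted p = 0.0314 and 0.000102). Without the filter on TPM, *Actc1* (−1.35, adjusted p = 0.130) and *Actg2* (−2.15, adjusted p = 0.0984) no longer passed with limma. With library totals alone, the median of all genes rose from 0.03 to 0.15, *Actb* passed (0.89, adjusted p = 0.0492) and *Acta2* turned to 0.03, or −0.12 relative to that median. With counts in place of TPM the log2 ratio of *Actb* to *Actg1* differed by 0.289, against 0.204. The causes were not tested.

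The labels give both genotypes the numbers 1 to 3, but same-numbered libraries deviated together with correlations of 0.137, −0.116 and 0.004, so the numbers were not taken as pairs. With the replicate number as a block, *Actg2* gave −2.52 (adjusted p = 0.0519) and *Acta1* −0.07 in counts, and *Actb* passed in TPM (0.75, adjusted p = 0.0479). As shares of counts in place of TPM, the difference of *Actg1* was 1.05 percentage points against 2.23. Adding look-alike genes to the denominator, chosen after seeing the data as were the list counts without KO1, could barely bear on the shares, since *Actg-ps1*, *Gm12715* and *Gm8399* were listed at 0 TPM in every library and *Lrrc58*, the highest of those added, at 24.9 TPM or less. Each actin was held by at least 69 counts in a library, so that depth limits *Actg2* most.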

Other observations

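The actins lie on 6 different chromosomes, and the genes around them were read as a description. Among the 10 nearest tested genes of each, the median log2 fold change was 0.38 around *Actb*, with 8 of 10 above 0, and 0.24 around *Actg2*, with 6 of 10 above 0. Of the 10 around *Actb*, 1 passed as higher and 0 as lower in KO, and around *Actg2* 1 passed in each direction. Of all genes tested, 12.1% passed as higher and 10.6% as lower. Around *Acta2* it was 0.12, and around *Acta1*, *Actc1* and *Actg1* it was −0.03, 0.01 and −0.02. Actin-related genes, which encode more distant relatives such as subunits of Arp2/3, dynactin and chromatin remodelling complexes, had a median of −0.24. Of 10 tested, 1 fell, *Actr3b* (−1.47, adjusted p = 0.0409, edgeR, at most 82 counts in a library), and its call was lost whichever library was left out (adjusted p = 0.0648 to 0.153). Without KO1 1 of the 10 rose and 1 other fell.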
